A study of Homo sapiens with 3 samples.

Results

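The genes described here are the core of the RAS, RAF, MEK and ERK cascade: the small GTPases HRAS and NRAS, the kinases BRAF and ARAF, the MEK kinases MAP2K1 and MAP2K2, and the ERK kinase MAPK3. They were taken as a fixed list of 7 genes, matched by Ensembl identifier to symbol, out of 23379 genes in the files. All 7 were measured in all 3 libraries, and all 7 had a mean of at least 1 FPKM, the unit of the files, which scales fragments to gene length and library size. RNA was sequenced from DU145, an established human cell line from a prostate carcinoma metastasis, in 3 groups of 1 library each. The L597R group was transfected with a plasmid for BRAF carrying that exchange of 1 amino acid, the WT group overexpressed wild-type BRAF, and the P-Enter group was the negative control. The labels give no time after transfection, no selection step and no clone, and the 3 groups otherwise carry the same labels. Other paralogs of these families were not analysed here, so each share below is a share of the 2 named genes and not of the whole family.

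In this cascade a growth factor receptor loads RAS with GTP, RAS-GTP recruits RAF to the membrane, RAF phosphorylates MEK, and MEK phosphorylates ERK. BRAF has a higher basal kinase activity towards MEK than ARAF, and MEK1 (MAP2K1) and MEK2 (MAP2K2) both activate ERK1, the product of MAPK3. The cascade runs mainly on phosphorylation, so a level of mRNA does not measure its activity.

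FPKM is summed over a gene, so mutant, wild-type, plasmid and endogenous BRAF reads are in 1 value.

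The sequences below bear on how well reads of paralogs can be told apart. They are the longest exact runs shared by the longest coding sequences of the RAS and RAF pairs, 5′ to 3′, read from GENCODE 29 transcripts on GRCh38. HRAS and NRAS coding sequences were identical at 73.0% of 567 aligned bases, with a longest shared run of 14 bases that crosses an exon border in both genes. BRAF and ARAF were identical at 67.2% of 1798 aligned bases, and their run of 21 bases lies at chr7:140776998-140777018 (minus strand) and chrX:47568788-47568808 (plus strand). MAP2K1 and MAP2K2 were identical at 75.0% of 1176 aligned bases, and their longest shared run was longer than those of the RAS and RAF pairs.
HRAS and NRAS: tacagggagcagat
BRAF and ARAF: cagtggtgtgagggctccagc

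The libraries had 16603676 (L597R), 15665132 (WT) and 13294004 (P-Enter) counted reads, worked out from the steps of the FPKM values. The identity of the line rests on its labels, and the markers do not establish it. Of the 5 epithelial markers, KRT18 was the only one above 1 FPKM, at 34.3 to 37.6. KRT8 was at 0.534 to 0.623 FPKM, KRT19 and CDH1 had at most 3 reads in any library, and EPCAM had no row. VIM was at 127 to 132 FPKM. The prostate luminal markers KLK3 and HOXB13 had no row. PTPRC and COL1A1 had at most 3 reads in a library and PECAM1 at most 14. Since each group has 1 library, differences come without replicates and without p-values. Each interval is an exact 95% interval of a read ratio for counting error only, and it compares libraries and not conditions. In a bulk library, fewer cells with a transcript and less of it per cell cannot be told apart.

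Per kilobase of the deposited lengths, NRAS was the most abundant of the 7 genes and BRAF the least in each of the 3 libraries. The place of BRAF depends on its long deposited length. Per coding base it lay above HRAS and ARAF in L597R and WT, and in L597R also above MAPK3 and MAP2K1. NRAS, the RAS isoform of chromosome 1, was at 110.0 FPKM in L597R, 98.0 in WT and 84.8 in P-Enter. That placed it above 96.6%, 96.1% and 95.2% of the 9358 protein-coding genes with a mean of at least 1 FPKM. MAP2K2 came next at 56.8, 63.6 and 62.8 FPKM in L597R, WT and P-Enter. MAPK3, ARAF and MAP2K1 lay close together: MAPK3 had 18.5, 20.7 and 21.0 FPKM in the same order of libraries, ARAF 16.0, 19.1 and 19.0, and MAP2K1 18.1, 18.5 and 18.5. Counting intervals of neighbours in that middle group overlapped in WT, where MAPK3 spanned 19.6 to 21.9, ARAF 17.9 to 20.3 and MAP2K1 17.3 to 19.8 FPKM. On the deposited lengths HRAS came below them at 11.3 FPKM in L597R, 7.94 in WT and 16.0 in P-Enter. The place of HRAS also depends on length. Per coding base it lay above MAP2K1 and ARAF in L597R and P-Enter, slightly above MAPK3 in P-Enter, and lowest of the 7 in WT. The sum of the 7 genes was 240 FPKM in L597R, 232 in WT and 224 in P-Enter. RAS genes made up 50.5%, 45.6% and 45.0% of it, RAF genes 10.6%, 10.1% and 9.23%, MEK genes 31.2%, 35.4% and 36.3%, and MAPK3 7.72%, 8.92% and 9.40%.

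**Figure D1:**
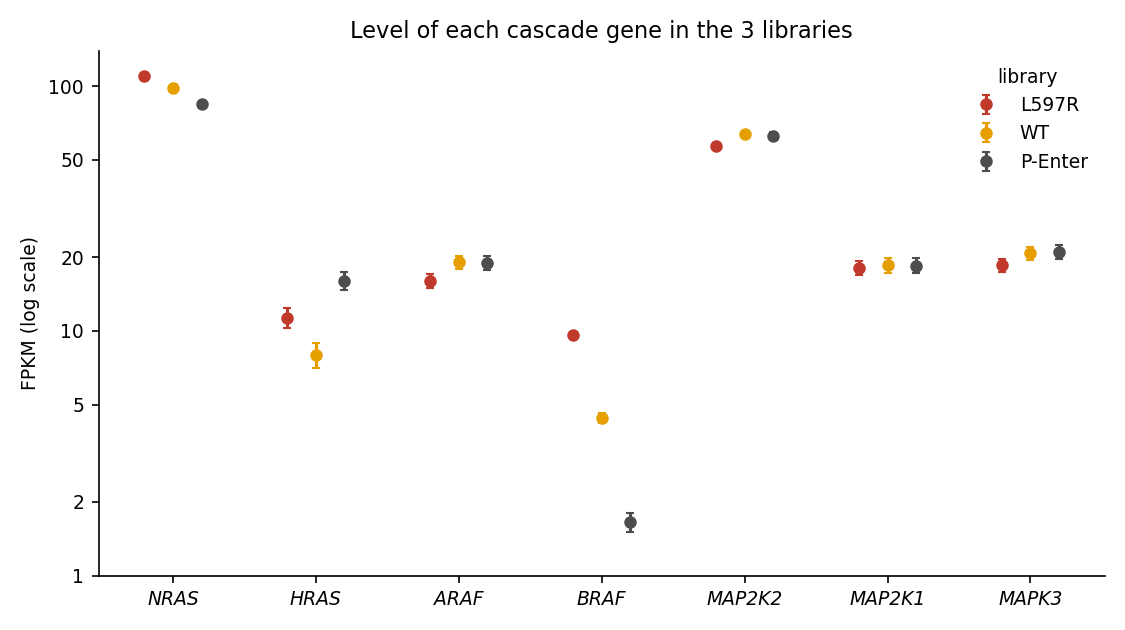
Level of each of the 7 genes in FPKM (log axis) in the L597R, WT and P-Enter libraries, with exact 95% counting intervals; there is 1 library per group. NRAS and MAP2K2 lie highest, and BRAF is the lowest of the 7 in each library on the deposited lengths, at 9.59 FPKM in L597R, 4.41 in WT and 1.65 in P-Enter.

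BRAF, the gene of the constructs, checks only that both BRAF libraries hold more BRAF reads than P-Enter. Mutant and wild-type reads are summed, so BRAF does not check which of these libraries is L597R and which is WT. Its GRCh38 position is chr7:140719327-140924928, minus strand, and it had 3733 reads in L597R, 1617 in WT and 514 in P-Enter. In CPM, reads scaled to library size without gene length, that was 225, 103 and 38.7, so the gain over P-Enter was 186 CPM in L597R and 64.6 CPM in WT, a gain 2.88 times as large in L597R. Read ratios to P-Enter were 5.82 (5.30 to 6.39) in L597R and 2.67 (2.42 to 2.95) in WT. On the per-length scale BRAF stood above 54.3% of protein-coding genes in L597R, 31.0% in WT and 8.25% in P-Enter. The genes beside it showed no difference of that size. ADCK2, 23065 bp away on one side, was at 12.7, 14.8 and 14.8 FPKM in L597R, WT and P-Enter. Its read ratios to P-Enter were 0.8555 (0.765 to 0.957) in L597R and 1.001 (0.898 to 1.12) in WT. MRPS33, 77681 bp away on the other, was at 13.3, 13.0 and 12.6 FPKM. Its ratios were 1.052 (0.963 to 1.15) in L597R and 1.03 (0.939 to 1.13) in WT. The next genes outward were TMEM178B, at 1.35, 1.54 and 1.45 FPKM, and DENND2A, with 1 read, 0 reads and 1 read. NDUFB2, a complex I subunit whose annotated gene overlaps BRAF by 3464 bp on the opposite strand, was at 4.01, 3.65 and 3.67 FPKM.

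The size rule asked for a difference of at least 1 in log2(FPKM + 1) and a mean level of at least 1 FPKM. This scale understates fold changes of low genes. In WT against P-Enter 1 of the 7 genes passed, BRAF with a difference of 1.03, where 0.978% of the 10639 genes tested passed in either direction. In L597R against P-Enter 1 of 7 passed, BRAF with a difference of 1.999, against 0.808% of all genes. In L597R against WT 0 of 7 passed, against 0.724% of all genes; BRAF differed there by 0.97 and had a read ratio of 2.18 (2.05 to 2.31). In both comparisons with P-Enter BRAF had the highest difference of the 9358 protein-coding genes. The pair of differences against P-Enter nearest to that of BRAF, among 9357 other protein-coding genes and over the 3 libraries, was that of MMP3, at a distance of 0.97 on the log2 scale. GON7 and ZBTB33 followed at distances of 1.33 and 1.37. MMP3 was at 4.13 FPKM in L597R, 1.31 in WT and 0.933 in P-Enter, GON7 at 3.53, 2.55 and 1.60, and ZBTB33 at 6.48, 4.87 and 3.38.

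HRAS was lower in both BRAF libraries than in P-Enter, and lowest in WT. HRAS encodes a membrane-bound RAS GTPase (chr11:532242-537287, minus strand). It had 456 reads in L597R, 303 in WT and 518 in P-Enter, although P-Enter was the library with the fewest reads. Relative to P-Enter, the read ratio of HRAS was 0.705 (0.620 to 0.801) in L597R and 0.496 (0.429 to 0.573) in WT. L597R stood 1.42 times (1.22 to 1.65) above WT. On the log2(FPKM + 1) scale the difference was -0.93 in WT against P-Enter, short of the size rule, and with a pseudocount of 0.1 it was -1.001 and passed. Counting HRAS itself, 12 of 9358 protein-coding genes differed by as much or more in that direction. In L597R against P-Enter the difference was -0.47, and 86 genes were as low or lower. The neighbours of HRAS were chosen after its values were seen, and the pair with more than a few reads was not lower in WT than in P-Enter. RNH1, the ribonuclease inhibitor 24941 bp away, was at 7.996 FPKM in L597R, 9.50 in WT and 8.86 in P-Enter. In L597R it was lower than in P-Enter, with a read ratio of 0.902 (0.822 to 0.989). PTDSS2, a phosphatidylserine synthase 40842 bp away, was at 6.75, 7.85 and 6.08 FPKM, with a ratio of 1.11 (0.9875 to 1.25) in L597R against P-Enter. On the other side LRRC56, which starts 239 bp from HRAS on the opposite strand, had 1 read in L597R, 4 in WT and 0 in P-Enter, and LMNTD2 had 3, 1 and 3, too few to compare.

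NRAS went the other way, with read ratios to P-Enter of 1.30 (1.25 to 1.34) in L597R and 1.16 (1.11 to 1.20) in WT, and 1.12 (1.085 to 1.16) between L597R and WT. Located at chr1:114704469-114716894 (minus strand), it rests on 7898 reads in L597R, 6644 in WT and 4874 in P-Enter. The share of HRAS in the summed FPKM of HRAS and NRAS was 9.30% (8.52 to 10.1) in L597R, 7.495% (6.71 to 8.33) in WT and 15.9% (14.7 to 17.1) in P-Enter. NRAS was thus 9.75 times HRAS per length in L597R, 12.3 times in WT and 5.30 times in P-Enter. The odds of an HRAS read among reads of the pair were 0.543 times (0.475 to 0.621) those of P-Enter in L597R and 0.429 times (0.369 to 0.498) in WT. In L597R they were 1.27 times (1.09 to 1.47) those of WT. These odds ratios are of reads within a library and do not depend on library totals or gene lengths. They were not corrected for GC content, which was 65.8% for HRAS and 38.4% for NRAS. As residuals of the GC regression given below, HRAS was at -0.37 and NRAS at 0.15 in L597R against P-Enter. In WT against P-Enter they were at -0.88 and 0.13.

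**Figure D2:**
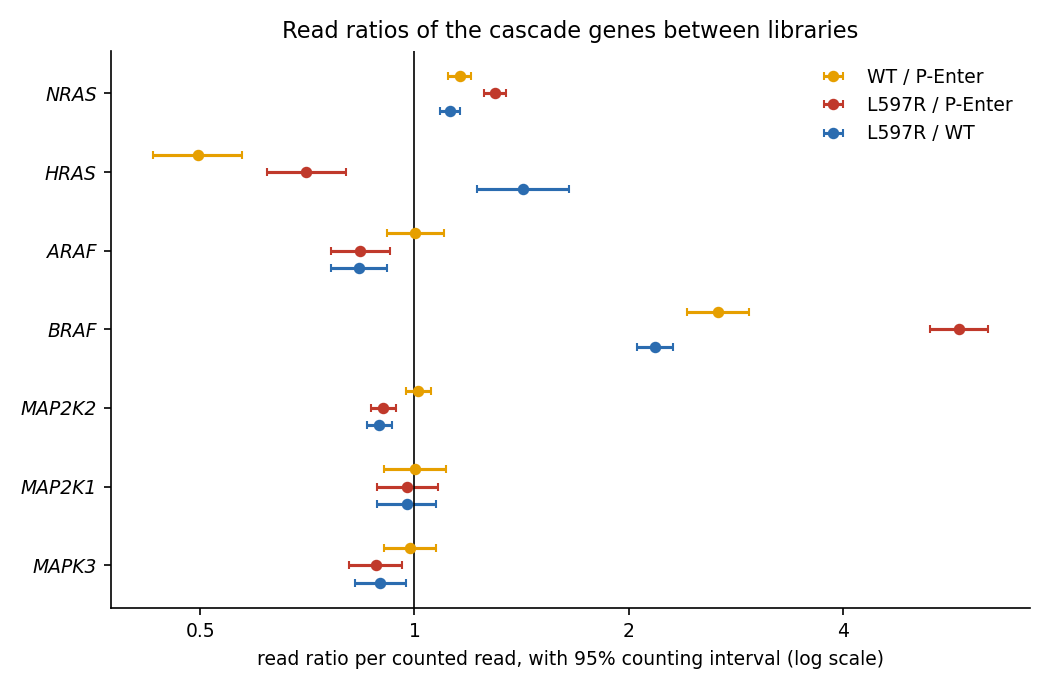
Read ratio per counted read (log axis) of each of the 7 genes for WT over P-Enter, L597R over P-Enter and L597R over WT, with exact 95% intervals for counting error; the vertical line is a ratio of 1. BRAF lies far to the right, HRAS is at 0.496 and 0.705 against P-Enter, and MAP2K1 crosses 1 in each comparison.

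ARAF, the RAF paralog on the X chromosome (47561100 to 47571920, plus strand), was close to P-Enter in WT and lower in L597R. It had 903 reads in L597R, 1018 in WT and 861 in P-Enter. Its read ratio to P-Enter was 0.840 (0.764 to 0.923) in L597R and 1.003 (0.915 to 1.10) in WT, and that of L597R to WT was 0.837 (0.764 to 0.916). The share of BRAF in the summed FPKM of BRAF and ARAF was 37.6% (35.9 to 39.3) in L597R, 18.8% (17.6 to 20.01) in WT and 7.99% (7.21 to 8.84) in P-Enter. The odds of a BRAF read in the pair were 6.92 times (6.06 to 7.91) those of P-Enter in L597R and 2.66 times (2.32 to 3.05) in WT, and 2.603 times (2.33 to 2.90) those of WT in L597R. Which of BRAF and ARAF is the larger depends on the length used. The deposited values divide BRAF reads by 23433 bp, close to the 23432 bp of all annotated BRAF exons, and ARAF reads by 3409 bp. Divided by the longest coding sequences, 2421 and 1827 bases, BRAF made up 75.7% of the pair in L597R, 54.5% in WT and 31.1% in P-Enter. Endogenous BRAF reads also fall in untranslated exons, and what part of BRAF reads came from the plasmid was not measured, so neither share is a share of molecules.

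**Figure D3:**
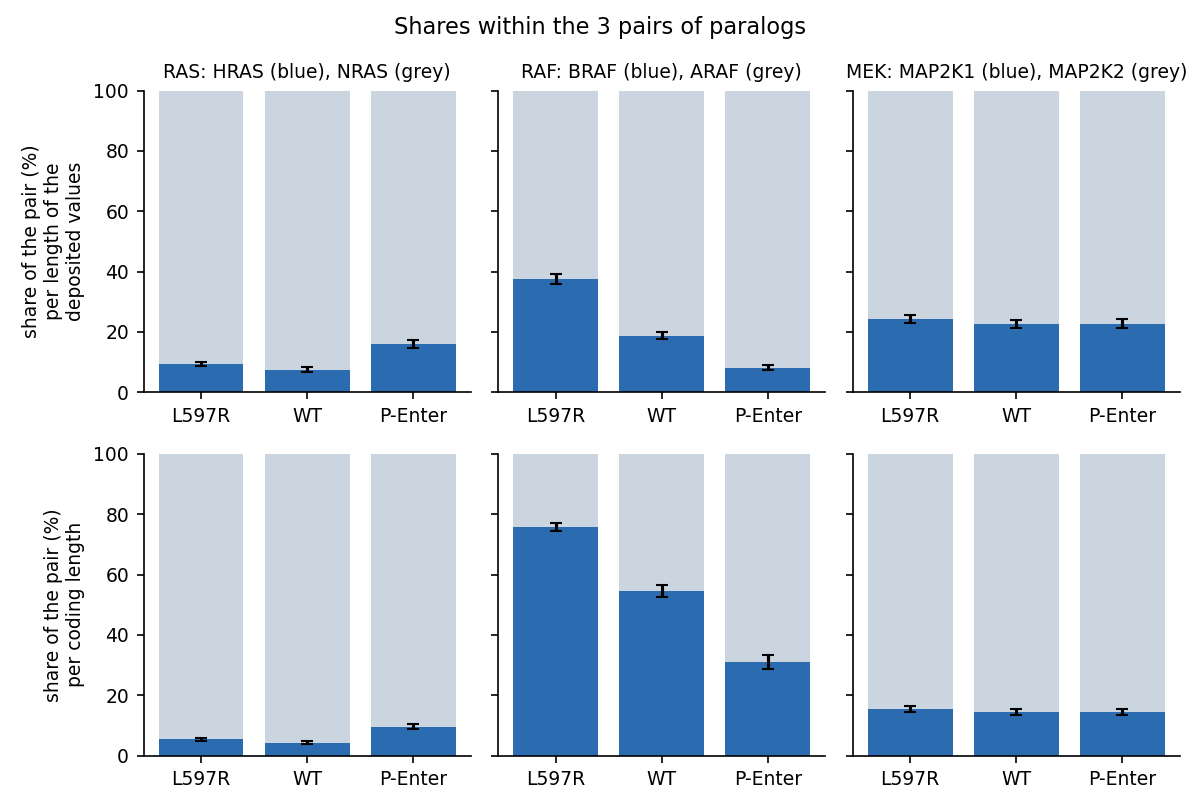
Share of each gene in its pair of paralogs (%), in the L597R, WT and P-Enter libraries, for RAS (HRAS in blue, NRAS in grey), RAF (BRAF in blue, ARAF in grey) and MEK (MAP2K1 in blue, MAP2K2 in grey). The upper row uses the lengths of the deposited values and the lower row coding lengths, and bars on the border are 95% counting intervals. BRAF has 37.6% in L597R in the upper row and 75.7% in the lower, and the MEK shares stay within 2 percentage points of each other.

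The MEK genes had odds ratios that held 1 within the interval in all 3 comparisons. MAP2K1 (chromosome 15, 66386817 to 66492312, plus strand) had 891 reads in L597R, 862 in WT and 730 in P-Enter, and its read ratio held 1 within the interval in all 3 comparisons. That ratio to P-Enter was 0.977 (0.885 to 1.079) in L597R and 1.002 (0.907 to 1.11) in WT, with 0.975 (0.887 to 1.07) between L597R and WT. MAP2K2 (chromosome 19, 4090321 to 4124129, minus strand) had 4928, 5208 and 4363 reads in L597R, WT and P-Enter. Set against P-Enter, its ratio was 0.904 (0.868 to 0.942) in L597R and 1.01 (0.973 to 1.06) in WT, and L597R was at 0.893 (0.859 to 0.928) of WT. MAP2K1 made up 24.1% (22.8 to 25.5) of the MEK pair in L597R, 22.6% (21.3 to 23.9) in WT and 22.8% (21.4 to 24.2) in P-Enter. The odds of a MAP2K1 read in the pair were 1.081 times (0.971 to 1.20) those of P-Enter in L597R and 0.989 times (0.888 to 1.10) in WT, and 1.09 times (0.986 to 1.21) those of WT in L597R. A change of the MEK proportion beyond these bounds was thus not seen, and a smaller one was not detectable at this depth. The annotated MAP2K1 gene overlaps SNAPC5 by 2178 bp on the opposite strand, and SNAPC5 was at 12.2, 11.3 and 12.7 FPKM in L597R, WT and P-Enter. The antisense gene ENSG00000261351 at the same locus had 12, 13 and 14 reads, and the pseudogene RPL35AP32 had 0, 0 and 1.

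MAPK3 (chromosome 16, 30114105 to 30123506, minus strand) had 1130 reads in L597R, 1191 in WT and 1025 in P-Enter. MAPK3 stood at 0.883 (0.810 to 0.962) of P-Enter in L597R and 0.986 (0.906 to 1.07) in WT, and at 0.895 (0.824 to 0.972) of WT in L597R.

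Counted by intervals, 2 of the 7 genes lay above 1 in WT against P-Enter and 1 below, where 14.0% of 10639 genes lay above and 12.1% below. In L597R against P-Enter 2 lay above and 4 below, beside 25.5% and 23.9% of all genes. In L597R against WT 3 lay above and 3 below, beside 22.1% and 16.3%. The median log2 difference of the 7 was 0.01 in WT against P-Enter, -0.14 in L597R against P-Enter and -0.03 in L597R against WT, beside 0.00, -0.01 and 0.01 over all genes tested.

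GC content moved with these differences. Across 9358 protein-coding genes of the same libraries, the difference from P-Enter had a Spearman correlation with GC content of -0.69 in L597R and -0.45 in WT, and the 4 genes below 1 in L597R are GC-rich. The longest transcript was 65.8% GC for HRAS, 61.4% for MAPK3, 60.9% for MAP2K2, 58.9% for ARAF, 50.4% for MAP2K1, 40.0% for BRAF and 38.4% for NRAS. As residuals of a regression on GC content, length and expression, L597R against P-Enter gave 0.02 for MAP2K2, -0.02 for MAPK3, -0.09 for ARAF, 0.03 for MAP2K1 and 0.15 for NRAS. HRAS was at -0.88 in WT and -0.37 in L597R on that scale, and BRAF at 0.90 and 1.76. The shares and odds of the pairs above were not corrected for GC content, which differs between HRAS and NRAS and between BRAF and ARAF. What sets the GC trend was not tested.

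**Figure D4:**
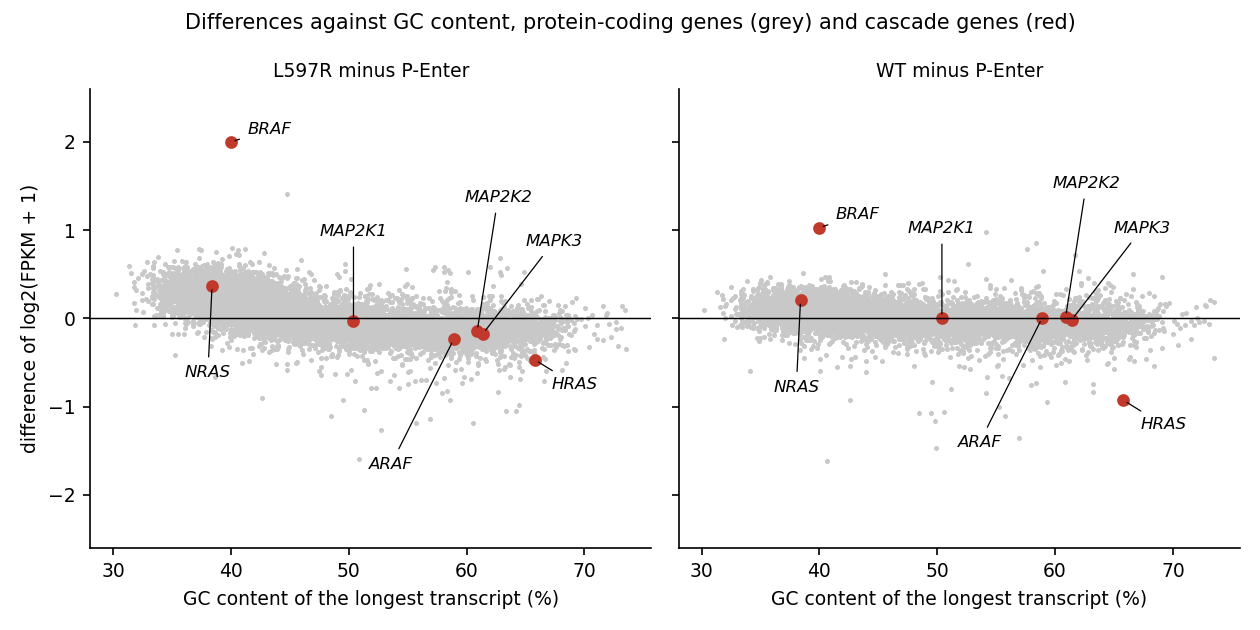
Difference of log2(FPKM + 1) against the GC content (%) of the longest transcript for L597R minus P-Enter (left) and WT minus P-Enter (right); grey points are 9358 protein-coding genes and red points the 7 cascade genes. BRAF lies above the cloud in both panels and HRAS near its lower edge in WT, at -0.93, while NRAS, ARAF, MAP2K1, MAP2K2 and MAPK3 lie within it.

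Around the cascade, 84 further genes in 7 lists were looked at, of which 80 were measured and 65 had a mean of at least 1 FPKM. Among these 65, 0 passed the size rule in any of the 3 comparisons. In L597R against P-Enter the interval lay above 1 for 27 and below 1 for 13, and in WT against P-Enter for 15 and 10. In L597R against WT it lay above 1 for 27 and below 1 for 7. In percent of the 65 that was 41.5% above and 20% below in L597R against P-Enter, where all genes had 25.5% and 23.9%, and 23.1% and 15.4% in WT against P-Enter, where all genes had 14.0% and 12.1%. In L597R against WT it was 41.5% and 10.8%, beside 22.1% and 16.3% of all genes. The counts by list below are to be read against these shares of all genes, and lists of 6 to 17 genes are small. The median differences were 0.02, 0.00 and 0.07 in the same order, beside -0.01, 0.00 and 0.01 over all genes. In L597R against P-Enter the genes above 1 had a median GC content of 41.1% and those below 1 of 56.9%.

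The RAS GTPase-activating proteins, which switch RAS off, had the highest list medians against P-Enter: 0.20 in L597R, with 4 of 6 tested members above 1 and 0 below (25.5% and 23.9% of all genes), and 0.10 in WT, with 3 above and 0 below (14.0% and 12.1% of all genes). RASA1 was at 17.7 FPKM in L597R, 15.6 in WT and 11.7 in P-Enter. The RASA1 read ratio to P-Enter was 1.52 (1.397 to 1.66) in L597R and 1.34 (1.22 to 1.46) in WT, and its residuals after the regression were 0.47 and 0.36. NF1 was at 6.45, 6.04 and 5.38 FPKM, with residuals of 0.02 in both, and RASA2 at 3.71, 2.94 and 2.76, with residuals of 0.04 in L597R and -0.04 in WT.

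The next list joins exchange factors, which load RAS with GTP, and adaptors. Of its 8 tested members 3 lay above 1 and 2 below in L597R against P-Enter, beside 25.5% and 23.9% of all genes. The count below was near that share. The exchange factors SOS1 and SOS2 were at 3.03, 2.77 and 2.40 FPKM and at 4.62, 3.42 and 3.31 FPKM in L597R, WT and P-Enter. PTPN11, the phosphatase SHP2 that acts between receptors and RAS, was at 52.1, 46.0 and 40.8 FPKM, with a ratio to P-Enter of 1.28 (1.22 to 1.33) in L597R and 1.13 (1.079 to 1.17) in WT. The residuals in L597R against P-Enter were -0.01 for SOS1, 0.20 for SOS2 and 0.22 for PTPN11. Of the RAS-related GTPases 4 of 8 lay above 1 and 1 below in L597R against P-Enter, beside 25.5% and 23.9% of all genes. RAP1B was at 10.5, 9.07 and 8.33 FPKM, RAP1A at 18.8, 16.0 and 15.2, and RRAS at 22.4, 25.3 and 26.2. After the GC regression the differences of RAP1B, RAP1A and RRAS in L597R against P-Enter were 0.01, 0.03 and -0.10.

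The 17 RAF regulators and chaperones had 9 members above 1 and 4 below in L597R against P-Enter, and 4 and 3 in WT. The shares of all genes were 25.5% and 23.9% in L597R and 14.0% and 12.1% in WT. The count below in L597R was near its share, and the counts in WT are small. PPP1CB, a phosphatase catalytic subunit, was at 22.2 FPKM in L597R, 17.8 in WT and 15.4 in P-Enter, with an L597R to P-Enter ratio of 1.44 (1.34 to 1.55). SHOC2, the scaffold of the phosphatase complex that removes an inhibitory phosphate from RAF, was at 11.8, 9.82 and 8.29 FPKM, and its ratio to P-Enter was 1.43 (1.28 to 1.60) in L597R and 1.18 (1.052 to 1.33) in WT. The 14-3-3 gene SFN was at 2.26, 1.22 and 1.26 FPKM from 49, 25 and 22 reads. Residuals in L597R against P-Enter were 0.16 for PPP1CB, 0.18 for SHOC2 and 0.68 for SFN. Of 7 tested scaffolds 2 lay above 1 and 1 below in both comparisons with P-Enter. All genes had 25.5% and 23.9% in L597R and 14.0% and 12.1% in WT. IQGAP1 was at 79.3, 65.7 and 60.1 FPKM, LAMTOR3, a lysosomal MEK1 partner, at 9.46, 8.89 and 6.74, and PEA15, which holds ERK in the cytoplasm, at 123, 129 and 132. Residuals in L597R against P-Enter were 0.30 for IQGAP1, 0.17 for LAMTOR3 and 0.00 for PEA15.

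Of 11 other kinases of MAP kinase cascades, 3 lay above 1 and 3 below in L597R against P-Enter, near the 25.5% and 23.9% of all genes. MAP3K2 was at 5.36, 4.71 and 3.65 FPKM in L597R, WT and P-Enter, MAPK8, which encodes JNK1, at 5.09, 3.82 and 3.68, and MAP2K4 at 5.71, 4.37 and 4.43. Their residuals in L597R against P-Enter were 0.10, 0.10 and 0.17. Downstream of ERK, 2 of 8 tested kinases and transcription factors lay above 1 and 2 below in L597R against P-Enter, again near the shares of all genes. RPS6KA3, which encodes RSK2, was at 5.21, 4.43 and 3.91 FPKM, ELK3 at 37.1, 31.8 and 29.6, and MKNK2 at 17.0, 17.1 and 19.2. Residuals in L597R against P-Enter were 0.14 for RPS6KA3, 0.21 for ELK3 and -0.02 for MKNK2. RPS6KA1, named after its values were seen, had the lowest ratio of the 65 genes in WT against P-Enter, 0.693 (0.534 to 0.897). Its ratio was 0.883 (0.6955 to 1.12) in L597R against P-Enter. It had 150 reads in L597R, 111 in WT and 136 in P-Enter, and its residuals against P-Enter were 0.06 in L597R and -0.23 in WT.

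**Figure D5:**
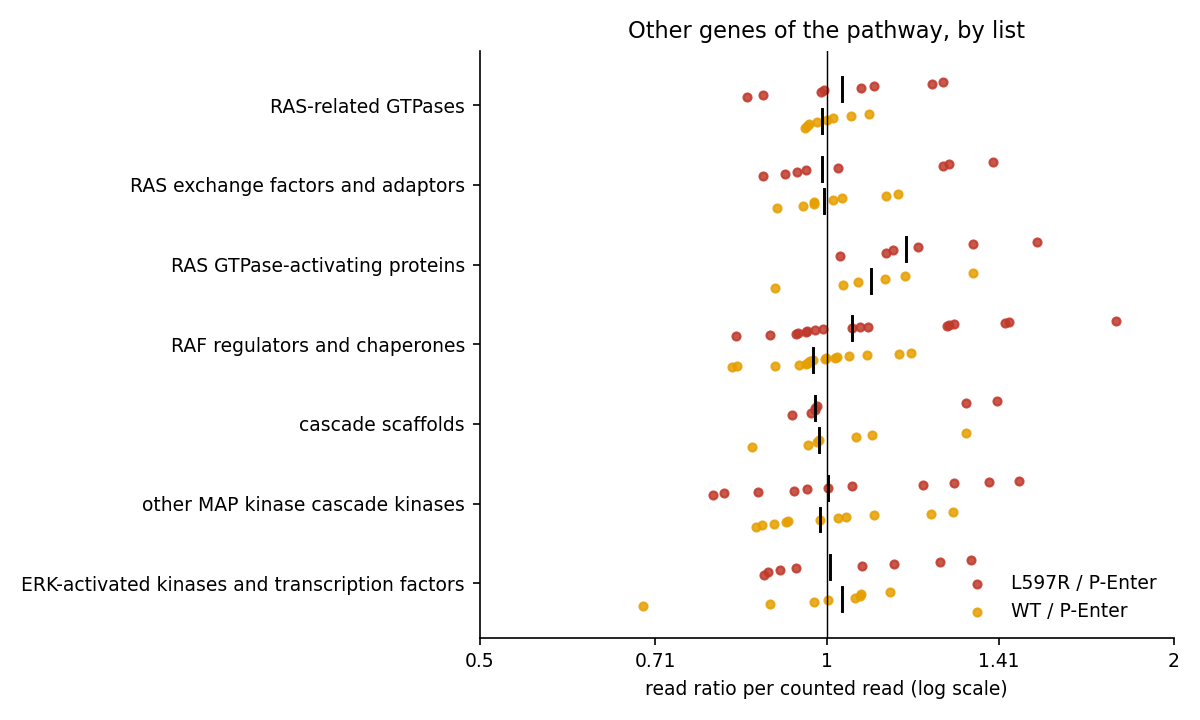
Read ratio per counted read (log axis) of the 65 tested genes of the 7 pathway lists for L597R over P-Enter (red) and WT over P-Enter (yellow); black bars are list medians and the vertical line is a ratio of 1. Each point is a gene, all lie between 0.693 and 1.78, and the GTPase-activating proteins have the medians farthest to the right.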

How the data were processed

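RNA came from Trizol extracts and a stranded mRNA kit, per the labels' protocols. Trimmomatic, HISAT2, Cufflinks and HTSeq are the tools in the submitters' processing notes, with hg38/GRCh38 as the build. Versions, strand setting and annotation release are not given in the sources used here, so reads of overlapping antisense genes cannot be assigned with certainty. The values the authors deposited are FPKM, 1 per Ensembl gene and library, per the file headers. Symbols came from a gene name table (23330 matched IDs), positions and coding sequences from GENCODE 29.

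Reads were worked out from FPKM by searching library totals and gene lengths that make them whole everywhere, to within 1e-05 reads or 5e-10 of the reads, whichever was larger. Reads came out for all but 2 genes and summed to 100.8% of each total, an excess of unknown origin. On data simulated for 2679 genes, 100% came back. The simulated lengths were equal or close to the annotated ones. Of the real lengths 48.6% were equal to the annotated ones and 87.3% were within 10%. HRAS (2435 bp, 1854 annotated) and MAP2K1 (2971 bp, 3759 annotated) lay farther off, so the simulation does not cover such genes. Read ratios have exact Clopper-Pearson 95% intervals, conditional on the sum of the pair, and odds ratios exact conditional ones. Copies made in amplification are not separate molecules, so all intervals cover counting error only. No test between groups is possible with 1 library each, and no count model was fitted.

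The names given are the 7 members, up to 3 genes of each list with the largest difference in L597R against P-Enter, the 3 genes nearest to BRAF, and neighbours and overlapping genes. Members and lists were chosen with earlier results of these data known. Some marker genes and sequences are not reported here. Other settings tried were pseudocounts, filters, thresholds, median rescaling, read intervals, other gene lengths and a GC regression. Versions were Python 3.11.15, scipy 1.17.1, pandas 2.3.3, matplotlib 3.10.9 and numpy 2.4.6.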

Additional observations from a re-analysis of the deposited data

How the results depend on the processing

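No replicate could be left out and no paired analysis was possible because each group has 1 library. The number of the 7 genes past the size rule in WT against P-Enter was 1 as reported, 2 with a pseudocount of 0.1 or a threshold of 1.5-fold (HRAS added), 0 with a pseudocount of 5 or after the GC regression (BRAF at 0.50 and 0.90), and 3 by read intervals. In L597R against P-Enter it was 6 by read intervals. In L597R against WT it was 1 with a pseudocount of 0.1 or a threshold of 1.5-fold (BRAF) and 6 by read intervals. Pathway genes past the rule were 0 of 65 as reported. By read intervals, 25, 40 and 34 of 65 lay off 1 in WT against P-Enter, L597R against P-Enter and L597R against WT. Counts by read intervals, for the 7 genes too, take an interval off 1 in either direction and not the size rule. Of all genes tested, 14.0% lay above 1 and 12.1% below in WT against P-Enter. Those shares were 25.5% and 23.9% in L597R against P-Enter, and 22.1% and 16.3% in L597R against WT. After the GC regression 3 small differences changed sign: MAPK3 in WT against P-Enter (0.043), and MAP2K1 (0.027) and MAP2K2 (0.019) in L597R against P-Enter. The cause was not tested.

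Shares moved with the length used, and no GC correction of shares was run. A change of length rescales the odds of a pair alike in all libraries, so it cannot change their order. In L597R, WT and P-Enter, HRAS had 5.46%, 4.36% and 9.61% of the reads of its pair (the same by coding length) and 12.2%, 9.86% and 20.3% by annotated exon length. BRAF had 80.5%, 61.4% and 37.4% of the reads of its pair and 75.7%, 54.5% and 31.1% by coding length. MAP2K1 had 15.3%, 14.2% and 14.3% of reads, 20.1%, 18.7% and 18.9% by exon length and 15.5%, 14.4% and 14.6% by coding length. Precision is limited by depth, with 303 to 518 reads of HRAS and 514 of BRAF in P-Enter.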
